A study of Mus musculus with 6 samples.

Results

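The transcripts described here belong to 7 genes that detect double-stranded RNA in the cytoplasm or carry the signal towards interferon. They are Eif2ak2, Ddx58, Ifih1, Adar, Mavs, Tbk1 and Irf3, taken by name from a table of 28879 genes, and all 7 were in it. They were chosen on a topic for which the values of this contrast were already known, so their differences between groups are given as a description and no test is read from them. Calls at an adjusted p are listed for them only to describe the fits, and are not evidence of a difference. The comparison is vitrified–warmed (Cryo) against fresh mouse blastocysts and asks what freezing and warming do to embryonic transcripts.

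Double-stranded RNA in the cytoplasm, a common sign of virus, is bound by RIG-I (encoded by Ddx58), by MDA5 (Ifih1) and by the kinase PKR (Eif2ak2). RIG-I and MDA5 signal through MAVS on the mitochondrial surface to the kinase TBK1, which phosphorylates the transcription factor IRF3, and IRF3 switches on interferon beta. PKR instead phosphorylates the translation factor eIF2alpha and slows protein synthesis, while ADAR edits adenosines in the cell's own double-stranded RNA and so keeps it from being sensed. In the early mouse embryo and in mouse embryonic stem cells the interferon response to double-stranded RNA is known to be weak.

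Vitrified–warmed blastocysts were frozen with a clinical Cryotech kit, warmed and kept in human tubal fluid for 2 h, and fresh blastocysts were not frozen. All embryos came from zygotes of superovulated C57BL/6JNarl females aged 6 to 8 weeks and grew to blastocysts in human tubal fluid over 3 days (the series description names B6CBF1 mice instead, and the labels do not settle which). In each group 100 blastocysts were pooled and the pool was divided into 3 aliquots, each of which gave 1 Ovation SoLo library, so 6 libraries came from 2 pools. The spread between libraries is therefore that between aliquots, and no value below covers the spread between pools or embryos. Fewer cells of a type and less RNA per cell cannot be told apart in such pooled samples. The sample labels speak of embryo transfer, but the libraries were made from blastocysts.

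Exon fragments, read pairs counted within the annotated exons of a gene, numbered 9093411 to 11275436 in Cryo and 10788884 to 11843562 in fresh libraries. Of the library totals that underlie the deposited FPKM values (fragments scaled by exon length and by the library's total), exon fragments were 54.4% to 56.6% in Cryo and 63.2% to 63.6% in fresh libraries. Fresh replicate 1 stood apart. It held fragments of 20086 genes, against 15558 and 15991 in the other fresh libraries and 17563 to 17764 in Cryo libraries. For 735 genes it had at least 9 fragments where both other fresh libraries had 0, a count that was 0 to 3 for every other library within its own group. Of the table, 12774 genes had enough fragments for edgeR's test, among them 5 of the 7 genes, and Ddx58 and Ifih1 did not. Summed markers of the blastocyst lineages were present in both groups, with trophectoderm at 1728 to 1741 CPM in Cryo and 1491 to 1557 CPM in fresh libraries, epiblast at 854 to 887 CPM in Cryo and 799.9 to 838 CPM in fresh libraries, and primitive endoderm at 691 to 711 CPM in Cryo and 621 to 632 CPM in fresh libraries. CPM are counts scaled to a common library size after TMM normalization, which equalises libraries on the bulk of their genes.

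The start regions of Eif2ak2, Ddx58 and Ifih1 are shown because they share a motif that the other 4 genes lacked in the same window. The motif is GAAANNGAAA, the core of the interferon-stimulated response element, through which interferon-activated factors of the STAT and IRF families act. It was searched on both strands of RefSeq windows that run from 250 bases before to 50 bases after a gene's start (GRCm38.p6), and 9 windows covered all 7 genes. The sequences are printed in the direction of the gene with the match in capitals.
Eif2ak2 (chr17:78882523-78882822, minus strand): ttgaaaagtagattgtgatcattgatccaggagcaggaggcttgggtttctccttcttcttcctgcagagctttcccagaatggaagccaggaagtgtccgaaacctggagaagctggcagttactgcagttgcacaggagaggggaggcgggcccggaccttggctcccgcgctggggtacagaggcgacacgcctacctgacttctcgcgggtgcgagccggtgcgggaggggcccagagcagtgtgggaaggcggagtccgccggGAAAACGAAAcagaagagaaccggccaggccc
Ddx58 (chr4:40239776-40240075, minus strand): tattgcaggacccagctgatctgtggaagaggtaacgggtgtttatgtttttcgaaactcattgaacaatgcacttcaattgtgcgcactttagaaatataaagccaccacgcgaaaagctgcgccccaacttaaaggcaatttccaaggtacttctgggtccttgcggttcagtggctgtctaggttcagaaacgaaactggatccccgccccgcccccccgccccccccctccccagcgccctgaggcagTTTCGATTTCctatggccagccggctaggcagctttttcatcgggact
Ifih1 (chr2:62646206-62646505, minus strand): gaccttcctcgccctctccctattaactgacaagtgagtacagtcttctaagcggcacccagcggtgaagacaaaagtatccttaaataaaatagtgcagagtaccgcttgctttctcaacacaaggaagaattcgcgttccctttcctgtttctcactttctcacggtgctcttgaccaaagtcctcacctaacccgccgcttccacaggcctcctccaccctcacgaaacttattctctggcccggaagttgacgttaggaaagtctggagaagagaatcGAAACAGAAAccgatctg

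All 3 matches lay just behind the start, within the first transcribed bases. In Eif2ak2 the match covered bases 19 to 28 after the start, in Ifih1 bases 33 to 42, and in Ddx58, where it was on the opposite strand, bases 3 to 12. The motif was found in 1131 of 32851 windows of all genes (3.44%), or in 1079 of 27025 genes (3.99%). It was found in 18 of 38 interferon-induced genes with a window and in 11 of 20 interferon genes. Only exact matches were counted. A window of Adar holds GAAAGTGAAC, which differs from the motif in its last base. A match is a stretch of letters and says nothing of which factor is bound there.

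Among the 3 sensors, Eif2ak2 was nearly confined to Cryo libraries, whereas Ddx58 and Ifih1 were near 0 in both groups outside fresh replicate 1. Eif2ak2 (chromosome 17, 78852550 to 78882572 of GRCm38, minus strand, 19 exons) had 58, 59 and 55 exon fragments in Cryo and 2, 3 and 0 in fresh libraries. The groups did not overlap, and the lowest Cryo library was far above the highest fresh library. Mean levels were 5.57 ± 0.775 CPM in Cryo and 0.150 ± 0.136 CPM in fresh libraries (SD, n = 3 each). The fitted log2 fold change was 5.13 (standard error 0.49), with 150 of the 12774 genes tested (1.17%) above it. This rank only describes the value, because Eif2ak2 was chosen with this contrast known and passed the count filter through its Cryo libraries. The ratio of summed counts was 37.4 with an exact 95% interval of 15.7 to 117, which covers counting error only. The 5 fresh fragments set its size, and the log2 fold change was 5.79 without fresh replicate 2 and 4.55 without fresh replicate 3.

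**Figure D1:**
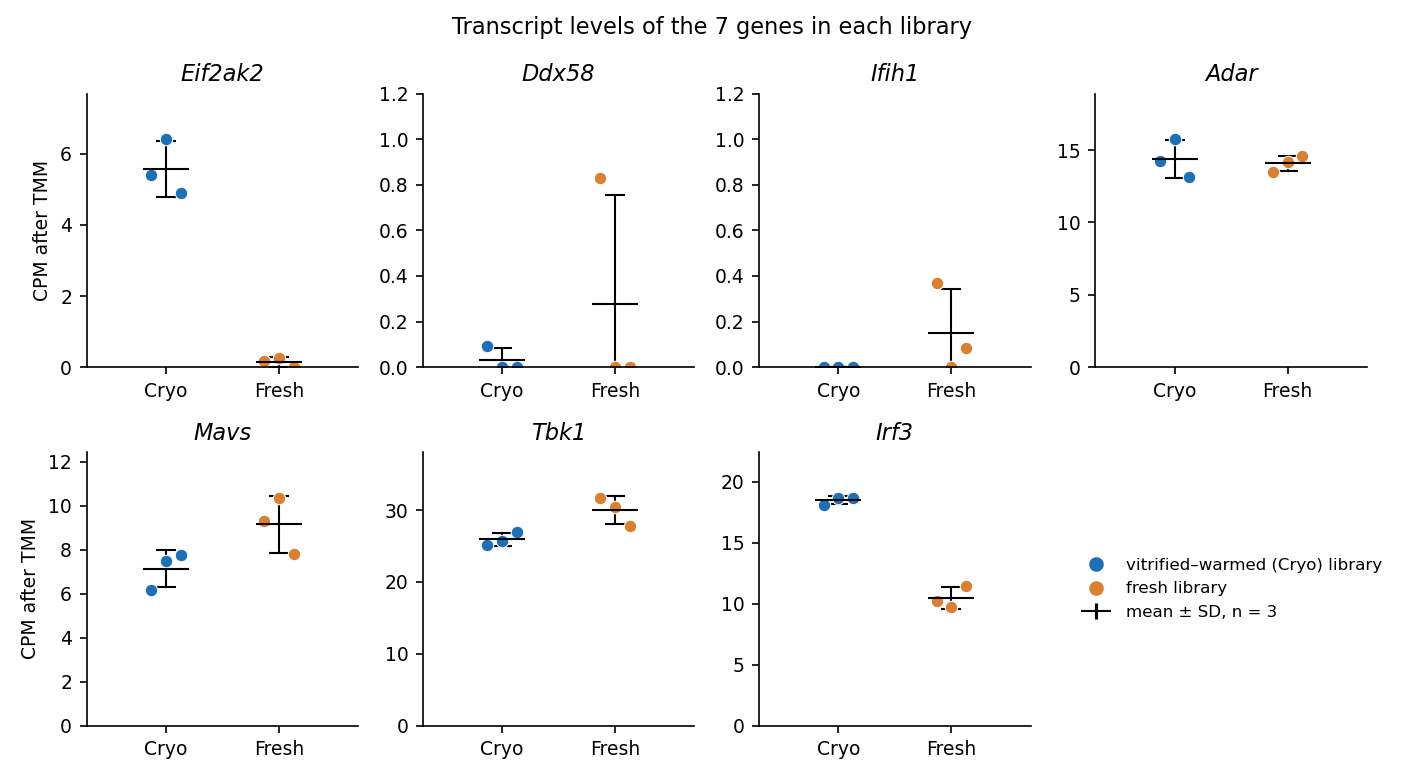
Level of each of the 7 genes in CPM after TMM scaling (vertical axes, each from 0 with its own range) in the 3 Cryo libraries (blue, left) and the 3 fresh libraries (orange, right). Points are libraries, the long bar is the mean and the whiskers are 1 SD (n = 3). Eif2ak2 and Irf3 lie higher in all Cryo libraries, Tbk1 and Mavs lie lower in all Cryo libraries, Adar overlaps, and Ddx58 and Ifih1 rest on fresh replicate 1.

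In spite of that ratio, Eif2ak2 was a low transcript in Cryo blastocysts. It reached 0.662, 0.770 and 0.602 FPKM in Cryo libraries, against 0.0255, 0.0361 and 0 FPKM in fresh libraries. The mean over all 6 libraries was 0.349 FPKM, which is under the minimum of 0.5 FPKM that the study set for differentially expressed genes, so Eif2ak2 was not called at those thresholds.

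The annotated genes beside the start of Eif2ak2 went the other way, at few fragments. LOC105246320, a gene on the opposite strand that overlaps Eif2ak2 by 1574 bases (chromosome 17, 78880999 to 78892502), had 0 fragments in all Cryo libraries and 20, 24 and 30 in fresh libraries, at least 22.7-fold lower against a floor of 3 fragments over the group. Sult6b1, a sulfotransferase gene 1365 bases away on the strand of Eif2ak2, had 0 fragments in all Cryo libraries and 6, 3 and 6 in fresh libraries, at least 4.61-fold lower on the same floor. In both genes all fresh libraries were above all Cryo libraries. The sources used here do not say whether fragments were counted by strand, so fragments of the overlap between Eif2ak2 and LOC105246320 cannot be told apart.

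**Figure D2:**
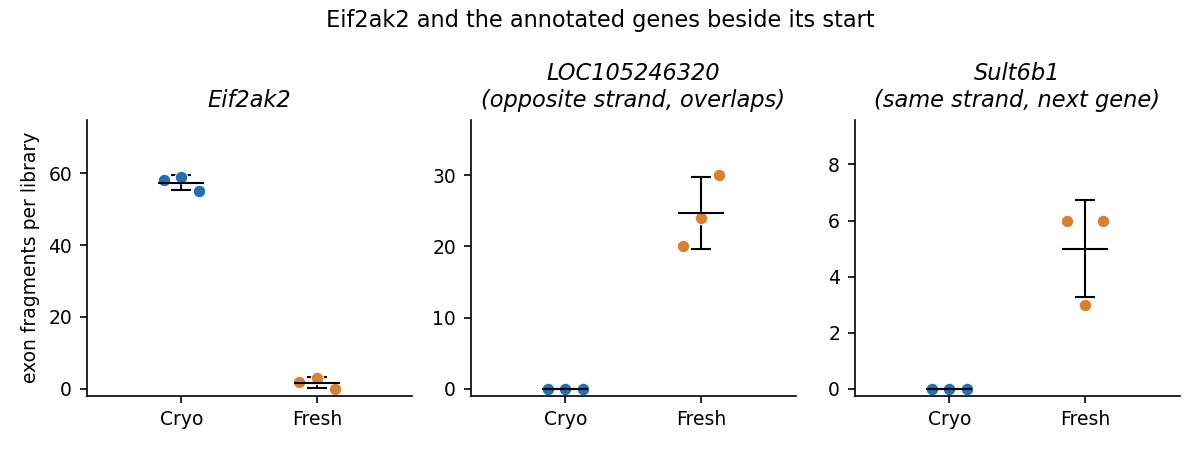
Exon fragments per library (vertical axes, each with its own range) for Eif2ak2, for LOC105246320 on the opposite strand and for Sult6b1 beside them. Blue points are Cryo and orange points fresh libraries, with the mean and 1 SD (n = 3). Eif2ak2 had 55 to 59 fragments in Cryo and 0 to 3 in fresh libraries, while both neighbours had 0 in every Cryo library.

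Ddx58, which encodes RIG-I, the sensor of short RNA with a 5′ triphosphate, lay on chromosome 4 (40203777 to 40239825, minus strand, 18 exons). It had 1, 0 and 0 fragments in Cryo libraries and 9, 0 and 0 in fresh libraries. All of the fresh fragments came from fresh replicate 1, and without it the totals were 1 and 0. The ratio of summed counts was 0.121 with an exact 95% interval of 0.00275 to 0.871 for counting error only.

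Ifih1, which encodes MDA5, the sensor of long double-stranded RNA, lay on chromosome 2 (62595612 to 62646255, minus strand, 18 exons). It had 0 fragments in all Cryo libraries and 4, 0 and 1 in fresh libraries, at least 1.54-fold lower on the floor of 3 fragments. Of the 5 fresh fragments, 4 came from fresh replicate 1. The groups overlapped at 0 for both sensors, and a difference between them was not detectable at this depth outside that library.

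Adar, which edits double-stranded RNA and so limits its detection, was at the same level within the spread of the libraries. The gene (chromosome 3, 89715022 to 89753455, plus strand, 21 exons) had 14.3, 15.8 and 13.2 CPM in Cryo and 13.5, 14.2 and 14.6 CPM in fresh libraries. The highest and the lowest library were both Cryo, so that the groups overlapped. The log2 fold change was 0.03 (standard error 0.11), and its sign turned under 4 alternative settings, to between -0.10 and -0.0039.

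Mavs and Tbk1, the adaptor and the kinase below the sensors, were somewhat lower in Cryo blastocysts. Mavs (chromosome 2, 131234063 to 131248025, plus strand, 9 exons) had 6.16, 7.50 and 7.73 CPM in Cryo and 9.29, 10.4 and 7.80 CPM in fresh libraries. The groups did not overlap, but the highest Cryo and the lowest fresh library nearly met. Means were 7.13 ± 0.849 CPM in Cryo and 9.15 ± 1.29 CPM in fresh libraries (SD, n = 3 each), and the log2 fold change was -0.36 (standard error 0.16). Over 14 alternative settings the log2 fold change ran from -0.47, without fresh replicate 3, to -0.25.

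Tbk1 (chromosome 10, 121546455 to 121586794, minus strand, 21 exons) had 25.1, 25.8 and 26.9 CPM in Cryo and 31.7, 30.5 and 27.8 CPM in fresh libraries. Every fresh library was above every Cryo library, with the smallest gap to fresh replicate 3. Means were 25.9 ± 0.924 CPM in Cryo and 30.0 ± 1.98 CPM in fresh libraries (SD, n = 3 each), and the log2 fold change was -0.21 (standard error 0.08). The difference was small. Over 14 alternative settings the log2 fold change ran from -0.35 to -0.16. When any 1 library other than fresh replicate 3 was left out, it was -0.22 to -0.17. The call of Tbk1 as lower in the main fit was lost under 12 of these 14 settings.

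Irf3, the transcription factor at the end of this chain, was higher in all Cryo libraries. The gene (chromosome 7, 44997648 to 45002848, plus strand, 12 exons) had 18.1, 18.7 and 18.7 CPM in Cryo and 10.2, 9.74 and 11.5 CPM in fresh libraries. The Cryo libraries lay close together and well above the highest fresh library. Means were 18.5 ± 0.332 CPM in Cryo and 10.5 ± 0.900 CPM in fresh libraries (SD, n = 3 each), and the log2 fold change was 0.82 (standard error 0.11), or 1.76-fold. Of the 12774 genes tested, 2126 (16.6%) had a larger log2 fold change. Irf3 too was chosen with this contrast known, so this rank is a description only. The log2 fold change of Irf3 ranged from 0.57 to 0.89 over 14 alternative settings.

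The genes on both sides of Irf3 did not move alike. Bcl2l12, an anti-apoptotic gene 4 bases away on the opposite strand, had 61, 63 and 74 fragments in Cryo and 40, 31 and 51 in fresh libraries. It rose by 0.82 on the log2 scale (standard error 0.21, with adjusted p = 0.00299 in the quasi-likelihood test of edgeR). Scaf1, which encodes a splicing-related protein 99 bases beyond the other end, fell by 0.35 on the log2 scale (standard error 0.12, adjusted p = 0.0153 from edgeR). Xpot, a tRNA exporter 585 bases from Tbk1 and on its strand, had a log2 fold change of 0.27 (adjusted p = 5.70e-05 from edgeR), opposite in sign to Tbk1.

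Of the 5 genes tested, 2 were called higher (Eif2ak2 and Irf3) and 1 lower (Tbk1) at an adjusted p under 0.05, where 31.6% of all 12774 genes were called higher and 32.8% lower. By the study's own thresholds, which ask for at least a 1.5-fold change, a mean over 0.5 FPKM and a p below 0.05 without adjustment, 1 was called higher (Irf3) and 0 lower, where 9.17% of all genes were called higher and 11.6% lower. Because the genes were chosen with this contrast known, nothing is read from these counts. The median log2 fold change of the 5 was 0.03, and that of all genes tested -0.0011.

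**Figure D3:**
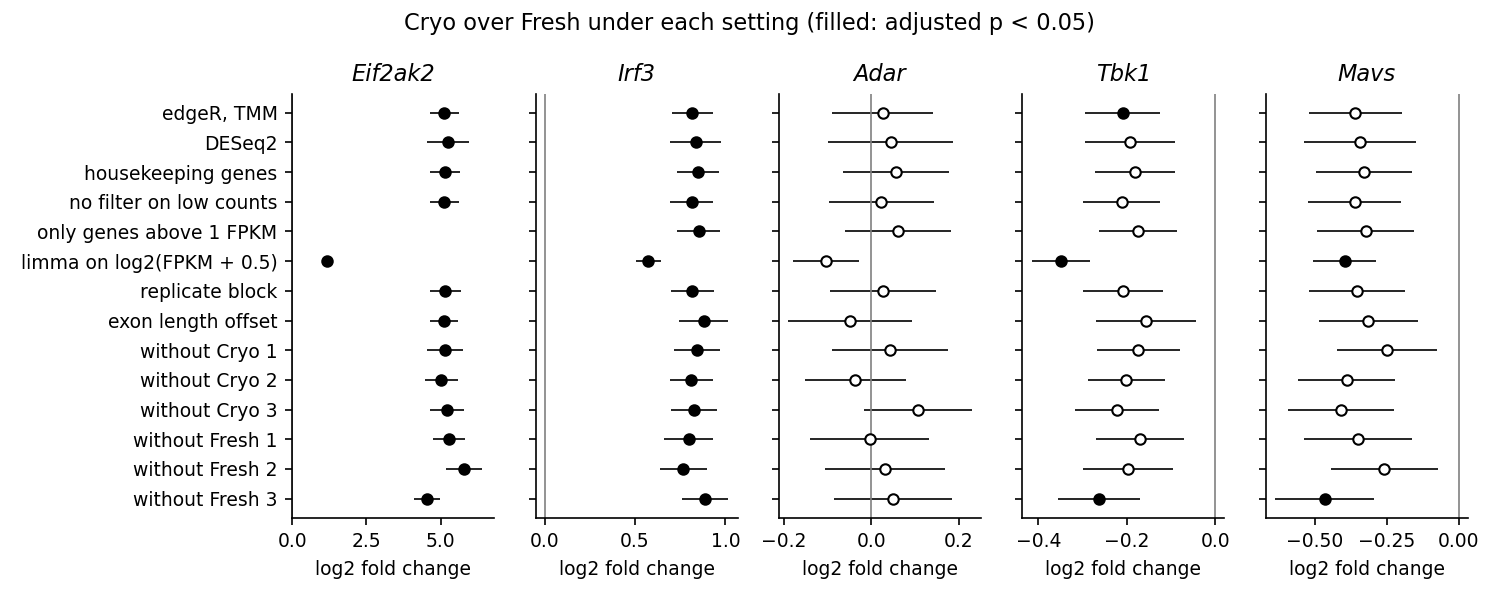
Log2 fold change of Cryo over fresh (horizontal axes, each with its own range) for the 5 tested genes under the main edgeR fit and 13 other fits (rows). Lines are 1 standard error and filled points are calls at an adjusted p under 0.05. Irf3 and Eif2ak2 were called in every row that holds them, Adar lies on both sides of 0, and Tbk1 and Mavs change their call between rows.

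Levels can be compared between genes only per length, in FPKM. In Cryo blastocysts Tbk1 (4.64 to 5.01 FPKM) and Irf3 (4.69 to 4.87 FPKM) were highest and overlapped, Adar (1.17 to 1.37 FPKM) and Mavs (1.08 to 1.37 FPKM) overlapped below them, and Eif2ak2 (0.602 to 0.770 FPKM) came next. In fresh blastocysts the order was Tbk1 (5.76 to 6.67 FPKM), Irf3 (2.81 to 3.33 FPKM), Mavs (1.53 to 2.03 FPKM) and Adar (1.36 to 1.44 FPKM), with no overlap between neighbours. There Ddx58, Eif2ak2 and Ifih1 all overlapped near 0. The FPKM of Irf3 divided by that of Tbk1 in the same library, which needs no scaling between libraries, was 1.01, 1.02 and 0.971 in Cryo and 0.451, 0.448 and 0.578 in fresh libraries. The transcript of the kinase was thus above that of its substrate in all fresh libraries and level with it in Cryo libraries.

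**Figure D4:**
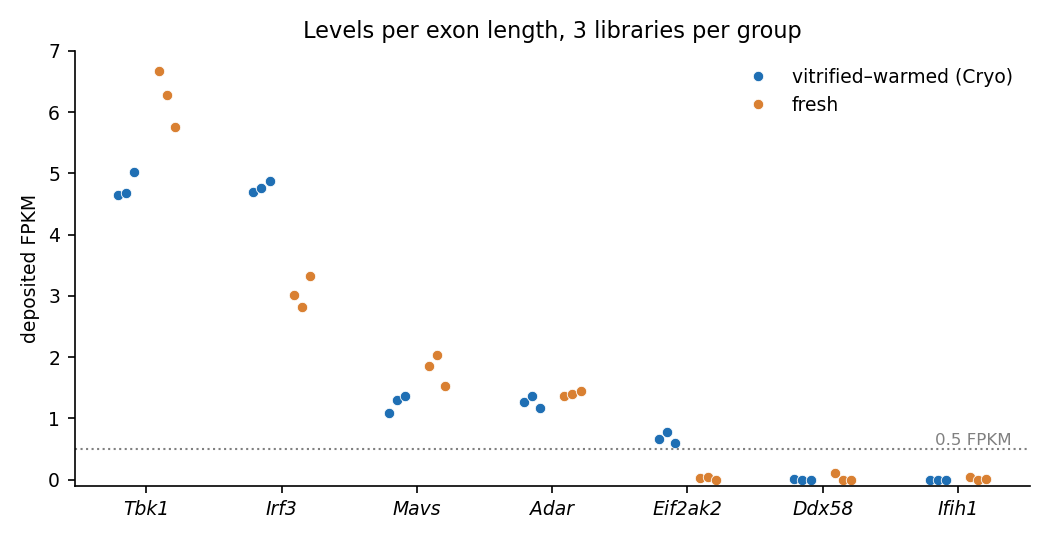
Deposited FPKM (vertical axis) of the 7 genes, ordered by their level, in 3 Cryo (blue) and 3 fresh (orange) libraries per gene. Tbk1 and Irf3 are level in Cryo and apart in fresh libraries, and the dotted line is the study's minimum of 0.5 FPKM, which Eif2ak2 exceeds in Cryo libraries only.

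Around these 7 genes, 195 of 197 listed genes of the same pathway were in the table, in 9 lists by role, and 120 were tested. Of these 36 rose (30.0%) and 40 fell (33.3%), close to the shares of all genes tested, with a median log2 fold change of 0.01. The study's thresholds were met by 11 of them upwards and by 17 downwards. No list was tested as a set, and the adjusted p-values that follow are edgeR's, with Benjamini–Hochberg correction across the 12774 genes.

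**Figure D5:**
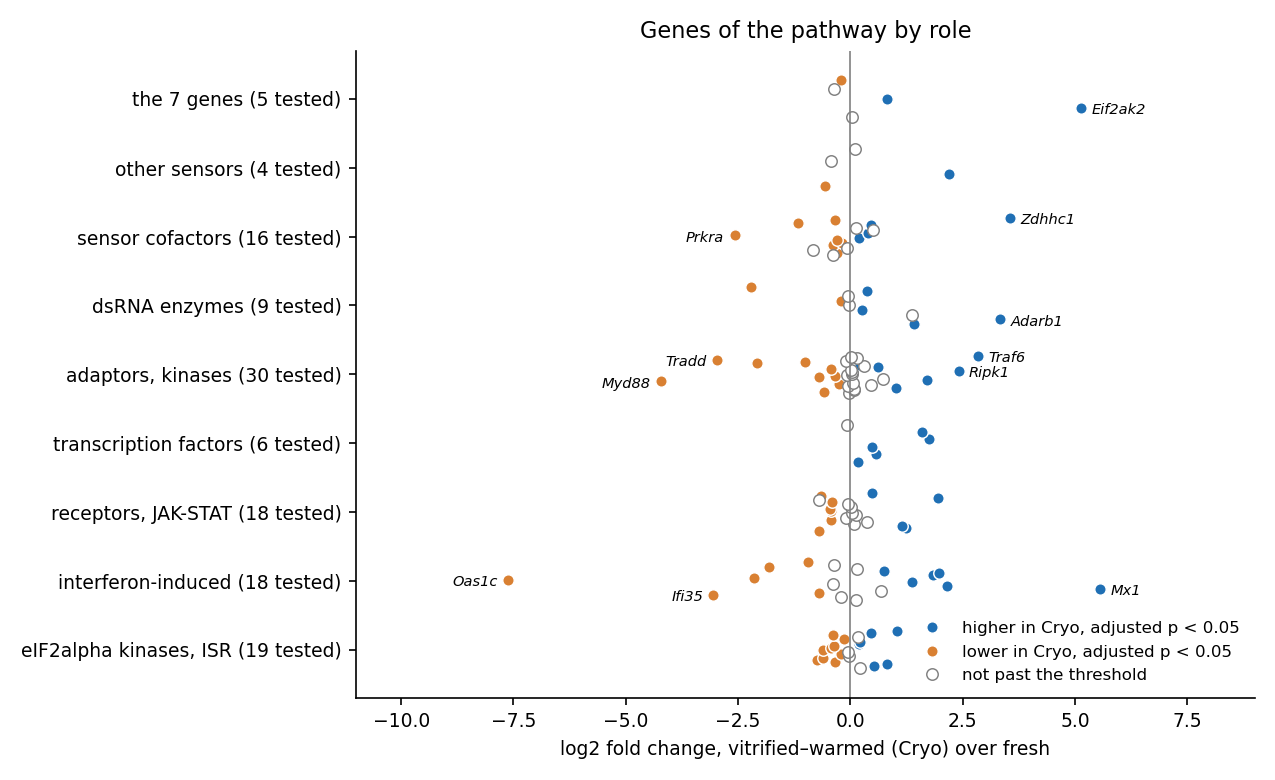
Log2 fold change of Cryo over fresh (horizontal axis) for each tested gene of the pathway, grouped by role (rows, with the number tested). Blue points were called higher and orange points lower at an adjusted p under 0.05 in edgeR, and open points did not pass. Every role but the transcription factors holds genes called lower, and Mx1 and Oas1c, seen almost in 1 group only, lie farthest out.

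Among 13 other RNA and DNA sensors, 4 were tested, of which 1 rose and 1 fell. Named after their values were seen, these were Nlrp1a, an inflammasome sensor, with a log2 fold change of 2.20 (adjusted p = 9.86e-04 in edgeR), and Aim2, a sensor of DNA, with one of -0.56 (adjusted p = 0.0212 in edgeR). Dhx58, which encodes LGP2, a helper of MDA5, had 0 fragments in all Cryo libraries and 3, 0 and 0 in fresh libraries. As for Ddx58, all of its fresh fragments came from fresh replicate 1. Tlr9 and Mb21d1, also untested, are named after their values were seen. Tlr9 had 0 fragments in all Cryo libraries and 29, 7 and 16 in fresh libraries, at least 15.97-fold lower. Mb21d1 had 1, 1 and 2 fragments in Cryo and 14, 7 and 23 in fresh libraries. Its ratio was 0.0987, with an exact interval of 0.026 to 0.271 for counting error. In the remaining untested sensors the groups overlapped.

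Of 16 cofactors of the sensors, all tested, 4 rose and 7 fell. Trim25, the ubiquitin ligase that activates RIG-I, had 986, 842 and 1043 fragments in Cryo and 713, 789 and 762 in fresh libraries, and rose with a log2 fold change of 0.46 (adjusted p = 1.85e-06 in edgeR). Rnf125, a ubiquitin ligase that marks RIG-I for degradation, rose too, by 0.39 on the log2 scale. Prkra, whose product PACT activates PKR and RIG-I, had 6, 10 and 11 fragments in Cryo and 62, 56 and 59 in fresh libraries. It fell by 2.58 on the log2 scale (standard error 0.31, adjusted p = 3.01e-06 in edgeR), so that the transcript of PKR was higher and that of its activator lower in all Cryo libraries. Dhx9, an RNA helicase, fell by 0.38, and Usp21, which removes ubiquitin from RIG-I, fell by 1.17 on the log2 scale. Usp21 had 31, 8 and 43 fragments in Cryo and 62, 57 and 79 in fresh libraries. Without Cryo replicate 2 it fell by 0.79 on the log2 scale.

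Of 10 other enzymes and carriers of double-stranded RNA, 9 were tested, 4 rose and 2 fell. Adad2, a testis relative of Adar that lacks editing activity, rose with a log2 fold change of 1.41 (adjusted p = 9.90e-05 in edgeR). Sidt2, a lysosomal carrier of RNA, rose by 0.37, and Dgcr8, which binds microRNA precursors, by 0.25 on the log2 scale. Skiv2l, an RNA helicase of the exosome that limits signalling through RIG-I, had 21, 24 and 24 fragments in Cryo and 115, 100 and 133 in fresh libraries, and fell by 2.21 on the log2 scale (adjusted p = 1.82e-07 in edgeR). Drosha, the nuclease that works with Dgcr8, fell by 0.20 on the log2 scale. The calls of Dgcr8 and Drosha did not hold with an offset for exon length (adjusted p = 0.542 and 0.0749 in edgeR), and that of Dgcr8 did not hold with limma on FPKM either (adjusted p = 0.349).

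Of 34 adaptors and kinases in the table, 30 were tested, 6 rose and 9 fell. Ripk1, a kinase that joins MAVS to NF-kappa B, had 167, 182 and 178 fragments in Cryo and 41, 34 and 33 in fresh libraries, and rose with a log2 fold change of 2.41 (adjusted p = 1.62e-08 in edgeR). Its partner Fadd rose by 1.02, and Nfkbia, the inhibitor that holds NF-kappa B in the cytoplasm, by 1.70 on the log2 scale. Tradd, which binds both in the complex on MAVS, had 11, 5 and 11 fragments in Cryo and 70, 87 and 75 in fresh libraries, and fell by 2.97 on the log2 scale (adjusted p = 2.84e-07 in edgeR). The members of that complex therefore moved in both directions.

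Myd88 and Ticam1, the adaptors that Toll-like receptors bind, fell, while Traf6, a ubiquitin ligase below MYD88 and MAVS, rose. Myd88 had 2, 2 and 1 fragments in Cryo and 31, 31 and 47 in fresh libraries, a log2 fold change of -4.22 (standard error 0.53 and adjusted p = 3.90e-06 in edgeR). Ticam1, which links TLR3 to TBK1, fell by 1.02 on the log2 scale (adjusted p = 2.36e-05 in edgeR). Traf6, named after its values were seen, had 67, 82 and 70 fragments in Cryo and 16, 11 and 6 in fresh libraries, and rose by 2.84 on the log2 scale (adjusted p = 1.43e-06 in edgeR). Traf3, which joins MAVS to TBK1, had 109, 78 and 85 fragments in Cryo and 101, 87 and 104 in fresh libraries, with overlapping groups and a log2 fold change of 0.02 (adjusted p = 0.933 in edgeR) whose sign turned under 4 settings. Ikbke, the kinase most like Tbk1, had 2, 5 and 12 fragments in Cryo and 16, 0 and 1 in fresh libraries and was not tested.

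Of 11 transcription factors and coactivators of interferon genes, 6 were tested and 5 rose (83.3%), where 31.6% of all genes tested rose. At the study's thresholds 1 of the 6 was higher. Jun, part of the complex on the interferon beta gene, had 410, 381 and 371 fragments in Cryo and 133, 140 and 146 in fresh libraries, and rose with a log2 fold change of 1.60 (adjusted p = 8.45e-09 in edgeR). Crebbp and Ep300, the acetyltransferases that IRF3 recruits, rose by 0.57 and 0.48 on the log2 scale. With an offset for exon length they rose by only 0.30 and 0.29. The remaining 2, named after their values were seen, were Irf5 with a log2 fold change of 1.75 and Atf2 with one of 0.16. Irf7, the partner of IRF3 that interferon itself induces, had 0 fragments in all Cryo libraries and 2, 0 and 0 in fresh libraries. Irf1 and Irf2, also untested, are named after their values were seen. Irf1 had 0 fragments in all Cryo libraries and 6, 3 and 4 in fresh libraries, at least 3.99-fold lower. Irf2 went the other way, with 2, 2 and 1 fragments in Cryo and 0 in all fresh libraries, at least 1.81-fold higher.

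None of 21 interferon genes was tested, and 9 had 0 fragments in every library. Ifnb1, the main target of IRF3, was one of these, so that interferon beta transcripts were not detectable in either group at this depth. Interferon genes together had 2, 5 and 1 fragments in Cryo and 67, 1 and 6 in fresh libraries. Fresh replicate 1 held fragments of 12 of them, against 1 or 2 in each other library.

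Of 21 genes of interferon receptors and JAK-STAT signalling, 18 were tested, 4 rose and 6 fell. Ifnar1, a chain of the type I receptor, had 191, 151 and 193 fragments in Cryo and 314, 331 and 304 in fresh libraries, and fell by 0.71 on the log2 scale (adjusted p = 8.02e-06 in edgeR). Stat2, a transcription factor of the type I response, fell by 0.65, and Ptpn11, a phosphatase, by 0.44 on the log2 scale. Ifngr2, a chain of the type II receptor, rose by 1.15 on the log2 scale. Tyk2, a kinase bound to the type I receptor, rose by 0.47 on the log2 scale (adjusted p = 0.0207 in edgeR). That call was lost without Cryo replicate 2, fresh replicate 2 or fresh replicate 3, with adjusted p of 0.0887, 0.0511 and 0.0884 in edgeR, and with limma on FPKM, at 0.19 (adjusted p = 0.155).

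Of 48 interferon-induced genes in the table, 18 were tested, 6 rose and 6 fell, with a median log2 fold change of -0.04. Of the 6 that rose, 3 (Mx1, Mx2 and Oas1b) have 0 annotated exons and were counted over their whole span, and Cryo libraries held the larger share of fragments outside exons, whose part in these calls was not tested. The whole list summed to 105 to 110.2 CPM in Cryo and 109.9 to 128 CPM in fresh libraries, and the groups overlapped. Phf11d rose with a log2 fold change of 0.74 (adjusted p = 9.67e-06 in edgeR). Ifi35 had 6, 8 and 7 fragments in Cryo and 57, 70 and 65 in fresh libraries, and fell by 3.05 on the log2 scale (adjusted p = 4.90e-07 in edgeR). Samhd1, which breaks down deoxynucleotides, had 67, 59 and 62 fragments in Cryo and 242, 233 and 239 in fresh libraries, and fell by 1.80 on the log2 scale (adjusted p = 1.50e-08 in edgeR). Xaf1, which promotes cell death, fell by 0.93 on the log2 scale. Isg15, a ubiquitin-like protein and a standard mark of the interferon response, had 0 fragments in all Cryo libraries and 4, 0 and 0 in fresh libraries.

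A few interferon-induced genes were, like Eif2ak2, almost limited to 1 group, and are named after their values were seen. Mx1, of the Mx GTPase family, had 24, 23 and 12 fragments in Cryo and 1, 0 and 0 in fresh libraries, a ratio of 64.1 with an exact 95% interval of 11.1 to 2572 for counting error. The length over which Mx1 was counted is its span of 15872 bases. Igtp, an immunity-related GTPase, had 5, 8 and 9 fragments in Cryo and 0 in all fresh libraries, at least 7.96-fold higher. Oas1c, of the oligoadenylate synthetase family, had 0 fragments in all Cryo libraries and 22, 22 and 33 in fresh libraries, at least 23.6-fold lower, though reads of the near-identical Oas1 copies may be shared among them. Its copy Oas1g, not tested, had 11, 13 and 9 fragments in Cryo and 0, 1 and 1 in fresh libraries, a ratio of 17.9 in the other direction with an exact 95% interval of 4.58 to 154.

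PKR is 1 of 4 kinases of eIF2alpha, and the other 3 are encoded by Eif2ak1, Eif2ak3 and Eif2ak4. Eif2ak1, which senses lack of heme, had 315, 278 and 305 fragments in Cryo and 488, 559 and 593 in fresh libraries, and fell by 0.75 on the log2 scale (adjusted p = 8.36e-07 in edgeR). Eif2ak3, which senses unfolded protein, had 176, 154 and 191 fragments in Cryo and 299, 263 and 297 in fresh libraries, and fell by 0.60 on the log2 scale (adjusted p = 5.65e-05 in edgeR). Eif2ak4, which senses lack of amino acids, had overlapping groups and a log2 fold change of -0.04 (adjusted p = 0.734 in edgeR). Eif2s1, which encodes eIF2alpha itself, had a log2 fold change of 0.19 with overlapping groups (adjusted p = 0.00579 in edgeR), and 0.02 with limma on FPKM (adjusted p = 0.818).

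Of 21 genes of these kinases and the integrated stress response, the programme set off by eIF2alpha phosphorylation, 19 were tested, 6 rose and 9 fell. Atf4, its central transcription factor, had 1262, 1150 and 1356 fragments in Cryo and 871, 988 and 998 in fresh libraries, and rose with a log2 fold change of 0.52 (adjusted p = 4.40e-07 in edgeR). Its targets Ddit3 and Trib3 rose by 0.82 and 1.03 on the log2 scale. Eif2b3, a subunit of the factor that recharges eIF2, fell by 0.61 on the log2 scale (adjusted p = 7.73e-07 in edgeR).

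Markers of other cells were checked because immune cells carry many of these transcripts. Of 13 blood and immune markers found, 3 were tested and all rose, namely Cd68, Hba-a1 and Hbb-bs, and the list summed to 14.8 to 19.8 CPM in Cryo and 4.54 to 6.53 CPM in fresh libraries. Fcer1g, a myeloid marker below the filter, went the other way, with 0, 0 and 1 fragments in Cryo and 6, 12 and 8 in fresh libraries (ratio 0.0418, exact 95% interval 0.00102 to 0.254). Ptprc, which marks every white blood cell, had 1 fragment in Cryo and 4 in fresh libraries in all, and Tyrobp, found in myeloid and natural killer cells, had 0 in both. Cumulus and oviduct markers summed to 0.978 to 1.40 CPM in Cryo and 1.15 to 5.43 CPM in fresh libraries, and oocyte markers to 10.9 to 17.6 CPM in Cryo and 18.1 to 19.7 CPM in fresh libraries. The part of these markers in the values of Eif2ak2 and Irf3 was not tested.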

How the data were processed

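The authors trimmed paired reads of 6 blastocyst libraries, aligned them to GRCm38 and quantified genes with CLC Genomics Workbench. They deposited whole-number exon fragment counts and FPKM per gene and library, with the exon length in bases. FPKM were computed by the authors from these counts and a larger library total, which includes fragments outside exons, so FPKM and CPM can differ in direction for small changes. The release of the annotation and the use of strand were not given in the sources used here. The authors' means, p-values and fold changes were not used. Of 28887 entries, 8 name no gene and were left out, and 0 per-sample columns went unused.

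Column names gave each library its group. After a filter on low counts (filterByExpr), edgeR 4.0.16 in R 4.3.3 fitted group only (TMM, robust quasi-likelihood test), with Benjamini–Hochberg adjustment over 12774 genes. The fit was first run on simulated data with the spread between these aliquots and few changed genes. That run does not cover the spread between pools or as many changed genes as were called here. For a group without fragments, 3 fragments over its 3 libraries were the floor. Intervals are exact binomial at 95%. Tables were made with Python 3.11.15. The 7 genes, the gene lists and the tests were chosen with earlier results of these data known. Genes named are the 7, up to 3 called higher and 3 called lower per list (largest absolute log2 fold change, mean above 0.5 FPKM, no overlap) and their direct partners, not all of which are reported here. Alternatives were DESeq2 1.42.0, scaling to the study's 12 housekeeping genes, no filter, only genes above 1 FPKM, limma 3.58.1 on log2(FPKM + 0.5), the study's thresholds, a replicate block, an exon length offset and leaving out each library.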

Additional observations from a re-analysis of the deposited data

How the results depend on the processing

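The number of the 7 genes called higher was 2 in the main fit and under the alternatives, except that it was 1 with only genes above 1 FPKM, where Eif2ak2 drops out, and 1 at the study's thresholds. It was 2 whichever library was left out. The number called lower, 1 in the main fit, was 0 with DESeq2, with housekeeping scaling, without the filter, above 1 FPKM, at the study's thresholds, with the replicate block and with the exon length offset, and 2 with limma on FPKM. With 1 library left out it was 2 without fresh replicate 3 and 0 without any other library. The log2 fold change of Eif2ak2 was 1.18 with limma, whose pseudocount of 0.5 exceeds its fresh level. That of Adar turned to -0.10 with limma and -0.048 with the exon length offset. With 1 library left out it ran from -0.037 (without Cryo replicate 2) to 0.11 (without Cryo replicate 3), and was -0.0039 without fresh replicate 1. That of Traf3 turned to -0.092 with limma and -0.097 with the exon length offset, and ran from -0.099 (without Cryo replicate 1) to 0.13 (without Cryo replicate 3), with -0.058 without fresh replicate 2.

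Pathway genes called numbered 36 higher and 40 lower, against 11 and 17 at the study's thresholds, and 27 and 50 with limma on FPKM. With limma the median of all genes was -0.13, with 2647 called higher and 5542 lower, against 4034 and 4188 with edgeR. Among 38 other named genes tested, 497 values kept their direction and call, 23 kept the direction and lost the call, and 4, all of Traf3, turned. The replicate numbers did not pair the libraries (correlations of -0.036, -0.0051 and -0.011 between same-numbered libraries), and with the replicate block 35 pathway genes were higher and 40 lower. Genes with under 10 fragments in a group, such as Ddx58 and Ifih1, are limited by depth. The causes of these shifts were not tested.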

Other observations

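The annotation deposited with the table assigns 67 genes to the RIG-I-like receptor signaling pathway of KEGG, a list looked up after the table was seen. It holds all of the 7 genes except Eif2ak2, and 36 of its genes were tested, of which 10 rose (27.8%) and 14 fell (38.9%) at an adjusted p under 0.05 in edgeR, against 31.6% and 32.8% of all genes tested, with a median log2 fold change of -0.05. At the study's thresholds 5 were higher and 6 lower. Of its tested genes, 11 were in no list above, and those given here are named after their values were seen. Atg5, which joins Atg12 in an autophagy complex that restrains RIG-I signalling, had 205, 143 and 220 fragments in Cryo and 526, 685 and 657 in fresh libraries, and fell by 1.60 on the log2 scale (adjusted p = 1.61e-08 in edgeR). The stress kinases Mapk8, Mapk9 and Mapk10 fell by 0.62, 0.62 and 1.10 on the log2 scale, while Map3k1, a kinase upstream of them, rose by 0.95 (adjusted p = 5.39e-07 in edgeR). Map3k7, which passes the signal to NF-kappa B, fell by 0.37 and Nfkbib, an inhibitor of NF-kappa B, by 0.23 on the log2 scale. Dak, whose product binds MDA5 and holds it back, had 50, 35 and 39 fragments in Cryo and 104, 83 and 91 in fresh libraries, and fell by 1.05 on the log2 scale (adjusted p = 1.57e-04 in edgeR).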
